A study of Mus musculus with 6 samples.

Results

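The sarcomeric myosin heavy chain genes of mouse muscle were examined in rib cage RNA of control embryos and of embryos that lack Foxc1 and Foxc2 in cartilage. The 8 genes were matched by symbol, as Myh1, Myh2, Myh3, Myh4, Myh6, Myh7, Myh8 and Myh13, and all 8 were found among the 55487 genes of the count table. RNA-Seq was run on whole rib cages of 6 mouse embryos at 16.5 dpc. The 3 control embryos, E420, E434 and E435, carry the genotype label wild type. The 3 mutant embryos, E423, E433 and E440, carry the label Col2-cre;Foxc1-/-;Foxc2-/-, in which a Cre recombinase driven by Col2a1 sequences, active in chondrocyte progenitors, removes the floxed alleles. According to the methods of the study, Foxc1 fl/fl;Foxc2 fl/fl females were crossed with males that carried Col2-cre and 1 deleted allele of each gene, and littermates were compared, though which embryos shared a litter is not given. By that cross every embryo receives a floxed allele of each gene from its mother. The label wild type then cannot mean unmodified Foxc1 and Foxc2 genes. The paper chose the rib cage because tissue other than skeleton could be removed from it. The rib cages had been cleaned of connective tissue, and the muscle measured here is what the samples still held. Keratinocyte markers, given below, were also found in them, and where the muscle came from was not tested. A level is an average over all cells of the tissue, and fewer muscle cells cannot be told apart from less RNA per muscle cell.

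Myosin heavy chain is the motor of the thick filament, and its isoform sets how fast a muscle fibre shortens. In limb and trunk muscle the embryonic isoform Myh3 and the neonatal isoform Myh8 come before the adult fast isoforms, Myh2 (type IIa), Myh1 (type IIx) and Myh4 (type IIb), while Myh7 serves slow fibres and the ventricle. Myh6 is the alpha isoform of heart muscle, and Myh13 is known from the extraocular muscles. The fast, developmental and extraocular genes lie side by side in a cluster, and the cardiac genes lie together elsewhere.

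Throughout, the values of single libraries are given in the order E420, E434, E435 for the controls and E423, E433, E440 for the mutants. The libraries held 37853988 to 47794799 counts. As counts scaled to the size of the library (CPM), Foxc1 stood at 23.1, 36.9 and 24.2 in the controls and at 3.56, 9.60 and 3.51 in the mutants, and Foxc2 was also lower in every mutant than in every control. Of the libraries, 2 stood apart, a control and a mutant. The summed level of 8 cartilage markers reached 20700 CPM in E434 and 7402 CPM in E433, against 468 to 1461 CPM in the other 4. The sum of 8 keratinocyte markers was 18.1 CPM in E434, 3263 to 6418 CPM in E420, E435 and E433, and 27145 and 27348 CPM in E423 and E440. The 6 hepatocyte markers summed to 586 CPM in E433 and to 29.2 to 46.0 CPM elsewhere. By contrast, E420 and E435 resembled each other, as did E423 and E440, with an SD of the log2 ratio over 14740 genes of 0.163 and 0.137 against 0.468 to 1.44 for all other pairs. The close pairs had mean squared differences of 10.8 and 3.64 times the counting variance per gene, on counts that hold both ends of a fragment. Such a difference cannot show whether 2 libraries come from separate embryos. Each library was counted as 1 embryo because the labels give each its own embryo number.

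The cluster of 6 genes was on chromosome 11, on the plus strand of GRCm38. In order along it lay Myh3 (chr11:67078300-67102291, ENSMUSG00000020908.14), Myh2 (chr11:67171027-67197517, ENSMUSG00000033196.17), Myh1 (chr11:67200052-67224575, ENSMUSG00000056328.14), Myh4 (chr11:67238029-67260446, ENSMUSG00000057003.12), Myh8 (chr11:67277124-67308634, ENSMUSG00000055775.16) and Myh13 (chr11:67321658-67371586, ENSMUSG00000060180.12). Myh6 (chr14:54941921-54966927, ENSMUSG00000040752.16) and Myh7 (chr14:54970684-54994626, ENSMUSG00000053093.16) lay on the minus strand of chromosome 14. The coding sequences of their longest coding transcripts ran from 5808 to 5829 bases. How alike they are decides how well reads tell the genes apart, so the most alike stretch of 60 coding bases is shown for 4 of the genes, with capitals at bases that differ from Myh3. It lies at coding bases 1426 to 1485 of Myh3, and 56 of its 60 positions were the same in all 8 genes.
Myh3: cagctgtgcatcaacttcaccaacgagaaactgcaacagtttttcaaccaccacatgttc
Myh8: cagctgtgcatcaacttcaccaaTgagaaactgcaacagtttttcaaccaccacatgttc
Myh4: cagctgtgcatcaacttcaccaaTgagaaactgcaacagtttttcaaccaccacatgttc
Myh7: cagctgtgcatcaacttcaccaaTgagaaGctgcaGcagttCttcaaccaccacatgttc

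The least alike stretch, near the start of the coding sequence at coding bases 147 to 206 of Myh3, shows where reads do separate them. Only 12 of its 60 positions were the same in all 8 genes, and Myh8 differed from Myh3 at 28 positions, Myh4 at 26 and Myh7 at 22.
Myh3: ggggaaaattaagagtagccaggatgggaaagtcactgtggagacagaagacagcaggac
Myh8: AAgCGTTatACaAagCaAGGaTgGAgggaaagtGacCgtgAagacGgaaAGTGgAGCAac
Myh4: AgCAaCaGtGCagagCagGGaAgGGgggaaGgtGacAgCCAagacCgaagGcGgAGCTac
Myh7: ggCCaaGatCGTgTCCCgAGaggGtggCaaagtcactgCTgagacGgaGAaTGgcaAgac

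Over the whole coding sequence, Myh7 and Myh6 were the most alike pair, with 91.6% identical bases and an unbroken shared run of 245 bases. Myh2 and Myh1 were identical at 90.9% of bases, with a shared run of 268. Myh8 was identical to Myh1 at 89.2%, to Myh2 at 89.1% and to Myh4 at 87.9%, against 80.8% for Myh8 and Myh3. Of all stretches of 42 bases in the longest coding transcript, 6.56% of those in Myh3 were also found in another of the genes. That share was 10.2% in Myh13, 22.8% in Myh4 and between 25.2% and 31.5% in Myh8, Myh7, Myh6, Myh1 and Myh2.

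The 2 pipelines of the study differed most on some of these genes. The count table from featureCounts counted each end of a fragment, and the libraries held 1.95 to 1.96 counts for each fragment that RSEM, the second pipeline of the study, gave to a gene. RSEM shares a fragment that fits several genes between them. The counts divided by 2 times the RSEM fragments came to 1.03 in each library for Myh3 and to 0.930 to 0.949 for Myh8. For Myh7 they came to 0.634 to 0.679, and 13.3% of the exon bases of Myh7 also lie in exons of antisense genes, whose part in that ratio was not tested. The ratio was 2.03 to 2.84 for Myh6, 8.37 to 13 for Myh1, 18.3 to 26.6 for Myh2, 17 to 55.5 for Myh4 and 90.4 to 276 for Myh13. These ratios did not follow the share of stretches found in any other of the genes, which was low in Myh13. Myh3 and Myh8 held the most counts of the 8 genes. The share of stretches also found in either was 16.5% in Myh2, 13.6% in Myh1, 11.97% in Myh4 and 8.47% in Myh13. It was 0.145% in Myh7 and 0.148% in Myh6. Neither share takes account of a gene's own level, which for Myh13 was only 6.08 to 28.4 RSEM fragments. The shares therefore cannot show what set the ratios, and the part of shared reads in the ratios was not tested. In the count table, Myh2 held between 4.02% and 4.66% of the counts of Myh8 in every library, and Myh4 between 3.55% and 3.97%. Under RSEM the same shares were 0.141% to 0.240% and 0.0640% to 0.206%. Reads that fit several genes equally did enter the count table, since of 872 genes at least 300 bases long whose every transcript is identical to one of another gene, 119 held counts. The counts of Myh1, Myh2, Myh4, Myh13 and, in part, Myh6 differ between the pipelines and are uncertain, and both pipelines are given for them below.

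**Figure D1:**
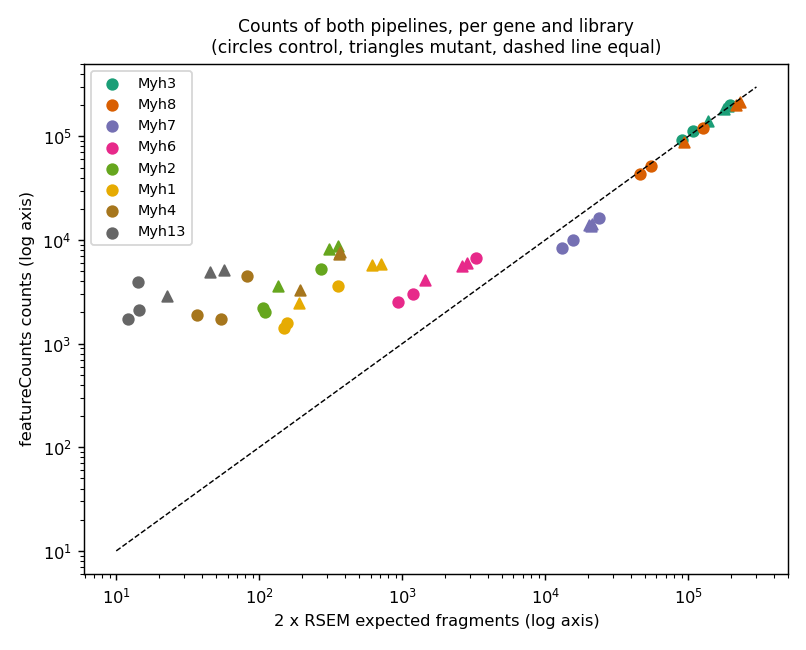
Counts from featureCounts (vertical, log axis) against 2 times the RSEM expected fragments (horizontal, log axis) for the 8 genes in 6 libraries, with circles for controls, triangles for mutants and a dashed line where both are equal. Myh3 and Myh8 lie on the line, Myh7 lies below it, and Myh1, Myh2, Myh4 and Myh13 lie 8.37 to 276 times above it.

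All 8 genes had a positive log2 fold change in the mutants, but 0 of the 8 passed edgeR's quasi-likelihood test on the counts at the limits used here (adjusted p under 0.1 with a log2 fold of 1 or more). Among the 26596 genes tested, that rule called 0.0338% higher and 0.0301% lower. At an unadjusted p-value under 0.05, 4 of the 8 were higher, namely Myh8, Myh4, Myh1 and Myh2, against 5.9% of all genes tested, with 4.7% lower. On RSEM fragments edgeR again passed 0 of the 8, where it called 0.0228% of genes in each direction. In DESeq2 on the counts, 5 of the 8 were higher at an unadjusted p-value under 0.05, against 6.75% of its genes higher and 4.41% lower. By its adjusted p, 0 of 8 passed the same limits, with 1.62% of its genes called higher and 0.557% lower. The median log2 fold change of the 8 genes was 0.95, against 0.01 over all genes tested. In CPM, the groups overlapped for all 8, while the mutants lay above all controls for 6.81% of genes. Control E434 was the highest control for every gene and exceeded at least 1 mutant each time, and E433 was the lowest mutant for every gene but Myh7. Where reads are shared between near-identical genes, their fold changes are not independent, and how far this holds for each gene was not tested.

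**Figure D2:**
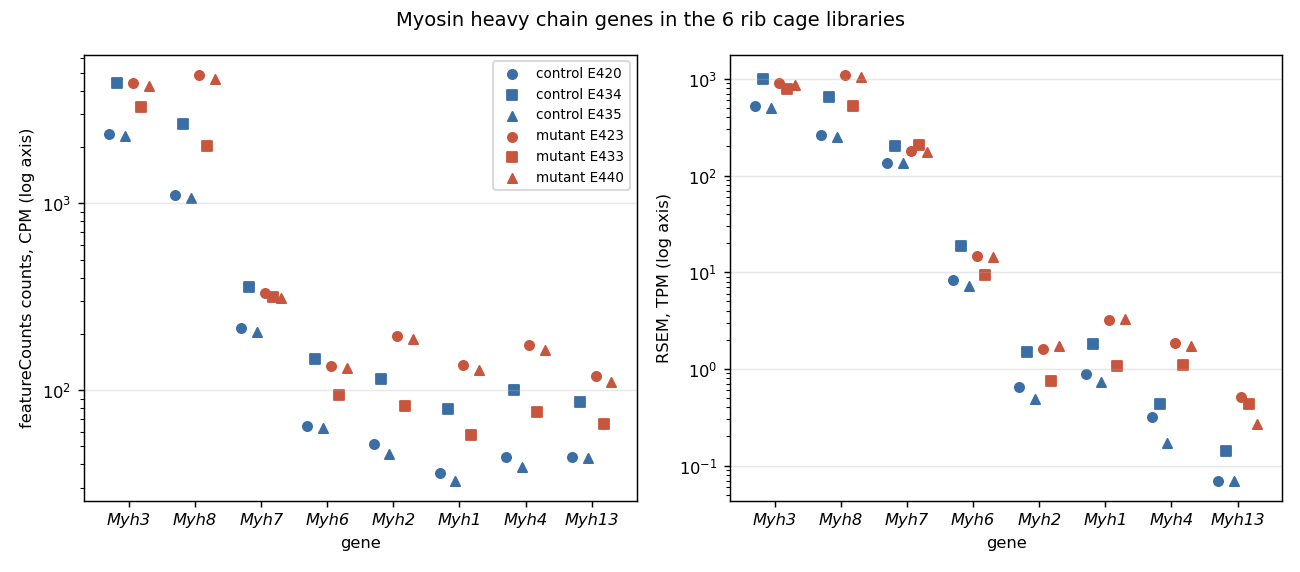
Level of each gene in each library, as CPM from the count table (left, log axis) and as TPM from RSEM (right, log axis), with controls in blue and mutants in red and 1 point per embryo. E420 and E435 are the lowest pair for all 8 genes in CPM, and the fast genes and Myh13 sit far lower in TPM than in CPM.

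The embryonic gene Myh3 had the highest level per length of the family in every control. It stood at 2349, 4428 and 2299 CPM in the controls and at 4405, 3284 and 4231 CPM in the mutants. The mutants all lay above E420 and E435 but below E434, so the groups overlapped. The mean was 3025 ± 1215 CPM in controls and 3973 ± 604 CPM in mutants (SD, n = 3), and the log2 fold change of 0.39 (SE 0.294, edgeR adjusted p = 0.669) was within the spread between embryos. RSEM gave 528, 1006 and 503 TPM in the controls and 913, 778 and 872 TPM in the mutants, in the same order of libraries.

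The neonatal gene Myh8 showed the largest difference of the 8 genes in the count table. Its level was 1102, 2643 and 1069 CPM in controls and 4867, 2037 and 4645 CPM in mutants. Both E423 and E440 were above every control, while E433 lay between E434 and the other controls. With means of 1605 ± 899 and 3850 ± 1574 CPM (SD, n = 3), the log2 fold change was 1.26 (SE 0.480, 95% interval 0.11 to 2.41, edgeR adjusted p = 0.445). RSEM levels were 265, 644 and 250 TPM in controls and 1100, 519 and 1046 TPM in mutants, and its log2 fold change of 1.29 had an edgeR adjusted p = 0.422. Without control E434, Myh8 had a log2 fold change of 1.83 with an edgeR unadjusted p = 0.00462 and adjusted p = 0.269. The edgeR unadjusted p for Myh8 was 0.0125 without mutant E433. Over all genes, 2788 had an edgeR unadjusted p-value under 0.05 without E434 and 6451 without E433, and the adjustment runs over all genes. Of the single libraries left out, only mutant E433 changed the call of Myh8. Without it, Myh8 had a log2 fold change of 1.57 with an edgeR adjusted p = 0.0965, and Myh1 one of 1.43 with an edgeR adjusted p = 0.0995, so that 2 of the 8 genes passed the limits where 2.84% of all genes tested were called higher. Without the cartilage-rich E434 and E433 together, a comparison of 2 libraries with 2 that differ little within each group, the log2 fold change of Myh8 was 2.13 and that of Myh3 0.90, and 6 of the 8 passed the edgeR limits where 5.66% of genes were called higher.

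The slow gene Myh7 had the smallest fold change and standard error of the 8. Its level was 215, 356 and 205 CPM in controls and 333, 315 and 310 CPM in mutants. The mutants lay between the lowest and the highest control. The log2 fold change was 0.30 (SE 0.217, 95% interval -0.22 to 0.82, edgeR adjusted p = 0.654). RSEM gave 135, 201 and 134 TPM in controls and 181, 209 and 176 TPM in mutants, and here E433 was the highest of the 6 libraries. Leaving out E434 raised the log2 fold change to 0.60, the top of the range over libraries left out, which began at 0.15.

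Myh6, the cardiac alpha gene that neighbours Myh7, stood at 64.1, 147 and 62.7 CPM in controls and 135, 94.5 and 131 CPM in mutants. E434 was the highest library and the groups overlapped. RSEM put it at 8.37, 18.6 and 7.27 TPM in controls and 14.9, 9.40 and 14.3 TPM in mutants. Its log2 fold change was 0.40 (SE 0.356, edgeR adjusted p = 0.722) on counts and 0.39 on RSEM fragments. With a single library left out the value on counts ran from 0.18 without E435 to 0.92 without E434 (edgeR adjusted p = 0.228). Heart muscle markers were near 0. The 11 heart muscle markers summed to 7.17 to 14.3 CPM in all libraries, at 8.03 CPM in E434 where Myh6 was highest, and 1 or 2 of the 11 were at 0 counts in each. Myl7, the atrial light chain, was at 1.91, 0.331 and 1.61 CPM in controls and 1.37, 0.835 and 1.69 CPM in mutants, and the cardiac transcription factor Nkx2-5 was at or below 0.0928 CPM everywhere.

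The fast genes were rare in all embryos in RSEM. In the count table, Myh2 stood at 51.3, 115 and 45.8 CPM in controls and 196, 82.7 and 189 CPM in mutants, the same order of libraries as Myh8. RSEM left Myh2 at 0.65, 1.49 and 0.49 TPM in controls and 1.61, 0.75 and 1.74 TPM in mutants. E423 and E440 were highest in both, and E434 exceeded E433 in both. Myh2 had a log2 fold change of 1.14 (SE 0.461, edgeR adjusted p = 0.464) on counts and 0.75 (SE 0.488, edgeR adjusted p = 0.580) on RSEM fragments.

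Myh1 followed Myh2 closely, with 36.2, 79.5 and 32.8 CPM in controls and 137, 57.3 and 128 CPM in mutants. Its RSEM levels were 0.89, 1.83 and 0.73 TPM in controls and 3.18, 1.08 and 3.28 TPM in mutants. In both units E434 lay above E433 and the groups overlapped. The log2 fold change was 1.12 (SE 0.452, edgeR adjusted p = 0.464) on counts and 1.23 (SE 0.555, edgeR adjusted p = 0.467) on RSEM fragments.

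Myh4, the gene of the fastest fibres, differed between the pipelines. The count table gave 43.8, 99.7 and 38.8 CPM in controls and 175, 76.2 and 165 CPM in mutants, again with E433 below E434. RSEM gave 0.32, 0.43 and 0.17 TPM in controls and 1.87, 1.09 and 1.72 TPM in mutants, so every mutant, E433 included, lay above every control. Among the 8 genes, Myh4 and Myh13 were apart in this way, against 6.95% of the 21928 genes with at least 10 RSEM fragments. The levels rest on few fragments, with 27.0, 40.7 and 18.4 in the controls and 181, 96.6 and 185 in the mutants. As a share of Myh8 fragments, Myh4 also separated the groups, with 0.118%, 0.0640% and 0.0672% in controls and 0.167%, 0.206% and 0.160% in mutants. The log2 fold change of Myh4 was 1.19 (SE 0.459, edgeR adjusted p = 0.449) on counts and 2.44 (SE 0.404, edgeR adjusted p = 0.191) on RSEM fragments. DESeq2 on the RSEM fragments, a test added after the values were seen, gave 2.45 with an adjusted p = 2.11e-06, and Myh4 was the 1 gene of the 8 past its limits, where 1.44% of genes were called higher.

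Myh13 was the rarest of the 8 in RSEM. Its 43.6, 86.5 and 43.2 CPM in controls and 119, 66.3 and 111 CPM in mutants corresponded under RSEM to 6.08, 7.11 and 7.18 fragments in controls and 22.5, 11.3 and 28.4 fragments in mutants. The mutants were above the controls in fragments, and its highest level was 0.51 TPM, in E423. On RSEM fragments its log2 fold change was 1.62 (SE 0.400, edgeR adjusted p = 0.327), and on counts 0.77 (SE 0.341, edgeR adjusted p = 0.489).

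Per length, the RSEM levels of the 3 controls all fell in the order Myh3, Myh8, Myh7, Myh6, Myh1, Myh2, Myh4 and Myh13. Control means were 679 ± 283, 386 ± 223 and 157 ± 38.3 TPM for Myh3, Myh8 and Myh7 and 11.4 ± 6.27 TPM for Myh6, then 1.15 ± 0.594 TPM for Myh1, 0.877 ± 0.537 TPM for Myh2, 0.307 ± 0.131 TPM for Myh4 and 0.0933 ± 0.0404 TPM for Myh13 (SD, n = 3). By their SDs over embryos, the neighbours Myh3 and Myh8, Myh8 and Myh7, Myh1 and Myh2, and Myh2 and Myh4 overlapped, while Myh7 and Myh6, Myh6 and Myh1, and Myh4 and Myh13 did not. E434 was the highest control for each gene, so these SDs hold a difference that the genes share. They do not bear on the order within a library, which was the same in the 3 controls. In mutants E423 and E440 Myh8 came before Myh3, while E433 kept the order of the controls for these genes. In E423 and E433 Myh4 came before Myh2.

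Summed over the 8 genes, myosin heavy chain took 3906, 7954 and 3797 CPM in controls and 10366, 6013 and 9910 CPM in mutants. E423 and E440 were above every control, and E433 was below E434. The sum made up 0.397% to 0.991% of all counts. The difference in mean log2 level was 0.80 (exact permutation test, 2-sided, p = 0.2, adjusted p = 0.356 over the 16 single-value comparisons made on this scale), and 3 embryos against 3 cannot give a p-value below 0.1. It was 0.61 without control E435, 1.15 without E434, and 1.40 without E434 and E433 together. The skeletal muscle markers had nearly the same order of libraries in their sum, with E420 and E435 exchanged. The 6 markers summed to 9911, 14736 and 10268 CPM in controls and to 20987, 11622 and 20724 CPM in mutants. Most of the sum came from the actin gene Acta1 and the fast genes Mylpf and Tnnt3, and these and the creatine kinase gene Ckm had log2 fold changes of 0.70, 0.45, 0.65 and 0.75, while the transcription factors Myod1 and Myog stood at -0.35 and -0.17. Relative to these markers, the mean log2 level of Myh8 differed by 0.74 (exact permutation p = 0.2, adjusted p = 0.356) and that of Myh3 by -0.11 (exact permutation p = 0.5, adjusted p = 0.571) on counts per kilobase. Adipocyte markers also moved with the groups, from 242, 303 and 244 CPM in controls to 805, 357 and 821 CPM in mutants, while keratinocyte and cartilage markers moved as given above. The 5 erythroid markers summed to 12106, 10746 and 12991 CPM in controls and 4303, 8732 and 4381 CPM in mutants, so that the sum was lower in every mutant, and their median log2 fold change was -0.99. It was 0.23 over 6 smooth muscle markers and 0.26 over 5 Schwann cell and nerve markers. Their part in the levels of the heavy chains was not tested.

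The share of each isoform within the sum does not depend on how much muscle a library held. Taken as counts per kilobase of exon, Myh3 made up 71.4%, 67.8% and 71.8% of the sum in controls and 56.1%, 66.9% and 56.3% in mutants. All mutants were below all controls, though E433 was within 1 percentage point of E434. The mean share was 70.3% ± 2.19 in controls and 59.8% ± 6.21 in mutants (SD, n = 3), a difference of -10.6 points (exact permutation test, 2-sided, p = 0.1, the smallest this design allows, adjusted p = 0.356).

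The share of Myh8 went the other way. Shares of a library add up to a whole, and Myh3 and Myh8 held most of it, so their shares are not independent results. The level of Myh3 itself was not lower in the mutants, with means of 3025 CPM in controls and 3973 CPM in mutants. The Myh8 share was 17.2%, 20.8% and 17.2% in controls and 31.9%, 21.4% and 31.8% in mutants. Again the groups did not overlap, by a narrow margin between E434 and E433. The mean rose from 18.4% ± 2.09 to 28.4% ± 6.05 (SD, n = 3), by 9.94 points (exact permutation test, 2-sided, p = 0.1, adjusted p = 0.356). In RSEM TPM, where E433 at 34.2% fell just under E434 at 34.4%, the groups overlapped and the exact permutation p was 0.2 (adjusted p = 0.32), with 28.2% and 27.9% in E420 and E435 against 49.6% and 49.4% in E423 and E440.

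The slow share, Myh7, was 4.60%, 3.83% and 4.50% in controls and 2.98%, 4.51% and 2.90% in mutants, an overlap set by E433 (exact permutation p = 0.3, adjusted p = 0.436). The fast share, Myh1, Myh2 and Myh4 together, was 3.71%, 4.19% and 3.41% in controls and 6.02%, 4.11% and 5.97% in mutants (exact permutation p = 0.2, adjusted p = 0.356). These shares differed more between the pipelines than between the groups. By RSEM TPM the fast share was only 0.198%, 0.200% and 0.155% in controls and 0.300%, 0.192% and 0.319% in mutants. Myh7 held 14.4%, 10.7% and 15.0% in controls and 8.17%, 13.7% and 8.30% in mutants. The pipelines divide by different lengths, which for Myh7 were 8616 bases in the count table and a mean of 3516 under RSEM, and for Myh8 11772 and 6125 bases. Myh6 and Myh13 together made up 3.15% ± 0.148 in controls and 3.04% ± 0.0204 in mutants of the counts per kilobase, and 0.907% ± 0.0918 and 0.677% ± 0.0256 of the TPM (SD, n = 3).

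**Figure D3:**
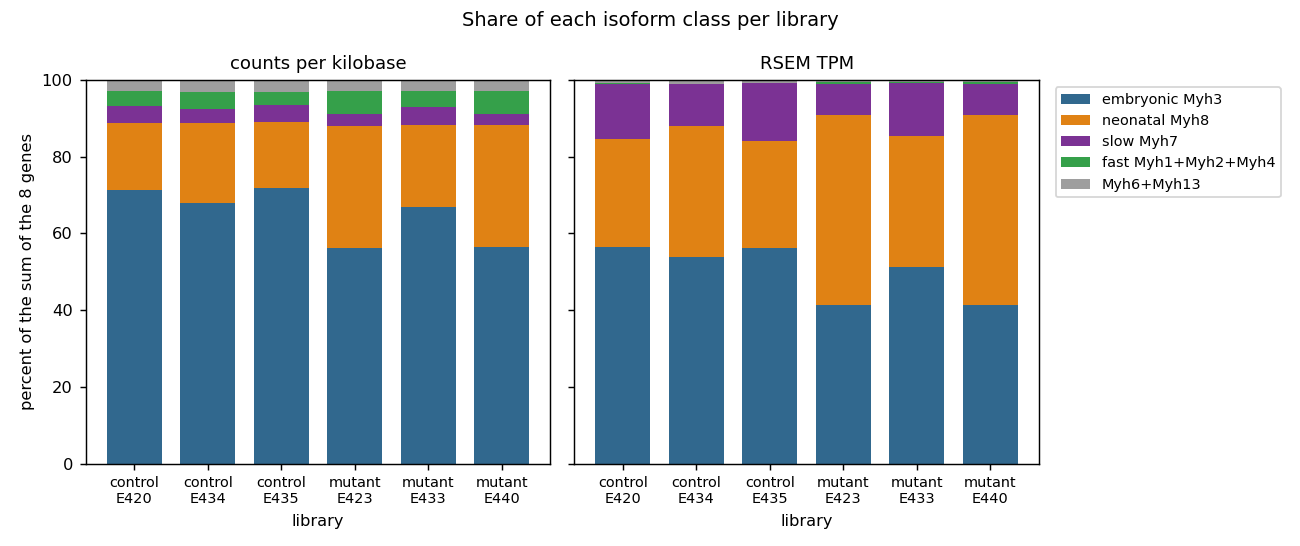
Stacked bars of the percent of the summed level taken by each isoform class in each library, by counts per kilobase of exon (left) and by RSEM TPM (right). In both, the orange Myh8 part is largest in mutants E423 and E440, E433 resembles control E434, and the green fast part seen at left nearly vanishes at right.

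The ratio of Myh8 to Myh3, which compares the neonatal with the embryonic isoform inside a library, uses the 2 genes on which the pipelines were closest. It rests on the same values as their shares and is not an independent result. In RSEM TPM it was 0.501, 0.640 and 0.496 in controls and 1.2, 0.667 and 1.2 in mutants. The mutants lay above the controls in every measure, with E433 next to E434. On counts per kilobase the log2 ratio averaged -1.94 ± 0.204 in controls and -1.10 ± 0.478 in mutants (SD, n = 3), a difference of 0.84 or 1.79-fold (exact permutation test, 2-sided, p = 0.1, adjusted p = 0.356). The RSEM difference was 0.87 (exact permutation p = 0.1, adjusted p = 0.32). Without E434 and E433 it was 1.24 on counts per kilobase, and over single libraries left out it ran from 0.70 to 1.12.

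For Myh7 relative to Myh3 the groups overlapped, with a difference in mean log2 ratio of -0.10 (exact permutation p = 0.5, adjusted p = 0.571) beside SDs of 0.10 in controls and 0.213 in mutants. Among the fast genes, Myh4 relative to Myh1 was 0.360, 0.235 and 0.233 in controls and 0.588, 1.01 and 0.524 in mutants by RSEM TPM, apart in both measures (exact permutation p = 0.1 in each, adjusted p = 0.32 and 0.356 on counts per kilobase). In log2 terms this difference was 1.33 by RSEM but 0.09 on counts per kilobase. The ratio of Myh2 to Myh1 overlapped between groups in both.

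**Figure D4:**
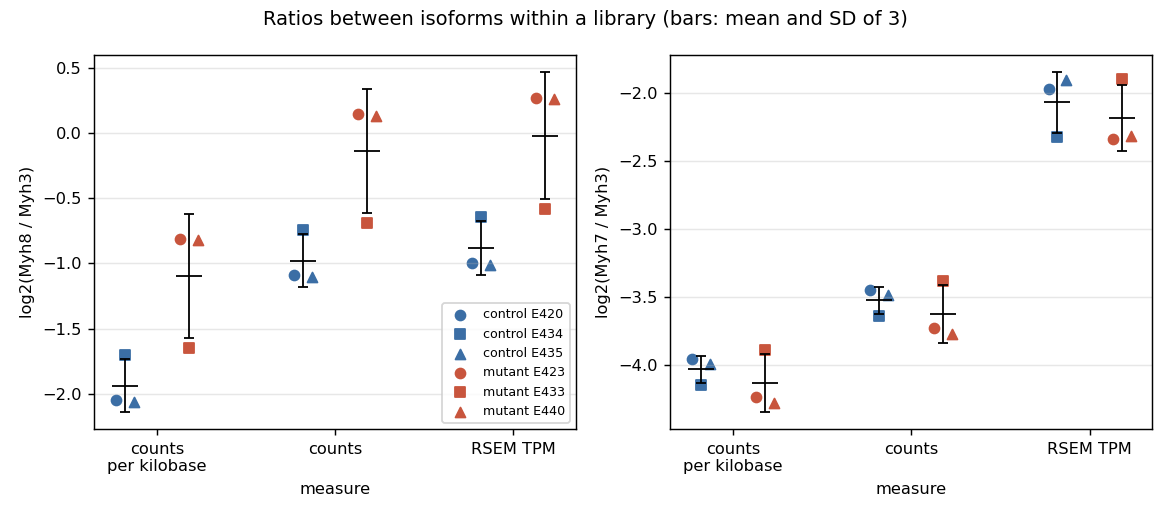
Log2 ratio of Myh8 to Myh3 (left) and of Myh7 to Myh3 (right) in each library, on 3 measures, with controls in blue, mutants in red and black bars for the mean and SD of 3 embryos. At left, E423 and E440 sit well above the controls and E433 just above E434, and at right the groups overlap on every measure.

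Genes that work with myosin in fast and slow fibres were set beside the heavy chains, from lists chosen with earlier results of these data known. All 11 fast fibre genes had positive log2 fold changes, with a median of 0.79, against 0.01 over all genes tested. None of the 11 passed the edgeR limits, 5 had an unadjusted p-value under 0.05 against 10.6% of all genes, and DESeq2 called 3 of them higher at any fold, where it called 2.61% of all its genes higher and 1.73% lower. Actn3, the alpha-actinin of fast fibre Z-discs, was at 16.8, 26.3 and 19.7 CPM in controls and 88, 31 and 86.7 CPM in mutants. Every mutant was above every control, and the log2 fold change was 1.71 (SE 0.409, edgeR adjusted p = 0.339, DESeq2 adjusted p = 0.000316). Mybpc2, the fast myosin binding protein C, was at 2.62, 8.65 and 3.26 CPM in controls and 38, 4.69 and 37.5 CPM in mutants. Here E433 lay below E434, and the log2 fold change of 2.46 (SE 0.839, edgeR adjusted p = 0.421) was the highest of the 11. Tnnc2, the fast troponin C, and Myoz1, a Z-disc protein, were the other fast genes that DESeq2 called, with DESeq2 log2 fold changes of 0.63 and 0.96 and adjusted p-values of 0.0958 and 0.0672.

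Of the 10 slow fibre genes, 8 had a positive log2 fold change and the median was 0.23. None passed the edgeR limits, 2 had an unadjusted p-value under 0.05, where 10.6% of all genes did, and DESeq2 called 1 higher, where it called 2.61% of all its genes. That gene was Myl2, the slow and ventricular regulatory light chain, at 45.6, 35 and 47.1 CPM in controls and 78.8, 59.2 and 78.6 CPM in mutants, with E433 above all controls (log2 fold change 0.76, SE 0.161, edgeR adjusted p = 0.273, DESeq2 adjusted p = 0.00159). The slow troponins Tnnt1, Tnnc1 and Tnni1 had log2 fold changes of 0.15, -0.05 and -0.06. The summed TPM of the slow genes relative to the fast genes was 0.256, 0.236 and 0.256 in controls and 0.175, 0.254 and 0.172 in mutants, and E433 lay among the controls (exact permutation p = 0.2, adjusted p = 0.32).

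Genes of immature muscle showed little difference, with a median log2 fold change of 0.07 over 5 genes. The embryonic light chain Myl4 was at 557, 606 and 583 CPM in controls and 607, 612 and 616 CPM in mutants, a log2 fold change of 0.07 although the groups did not overlap. Actc1, the cardiac actin of fetal muscle, had a log2 fold change of 0.50 (SE 0.230, edgeR adjusted p = 0.505). Of 7 light chain genes, 6 had a positive value, with a median of 0.09, and of 13 thick filament and M-band genes 11 did, with a median of 0.42. The 4 chaperones that fold myosin, among them Unc45b and Smyd1, had a median of 0.10, and none of these lists held a gene past the edgeR limits. The other class II heavy chains, among them those of smooth muscle and non-muscle cells, had a median of 0.03 over 6 genes. Of these, 3 were above 0. Myh9 was at -0.06, Myh10 at -0.11 and Myh15, with only 3 to 8 counts per library, at 1.18.

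The myogenic transcription factors gave lower and higher values side by side. Myod1, which commits cells to muscle, was at 71.2, 75.5 and 73.2 CPM in controls and 52.8, 68.7 and 50.9 CPM in mutants, with every mutant below every control (log2 fold change -0.35, SE 0.125, edgeR adjusted p = 0.429). Myf5, of earlier myoblasts, was apart in the same direction at -0.38. Myf6, the factor of differentiated fibres, was at 35.5, 49.96 and 36.9 CPM in controls and 62.6, 51.1 and 63.6 CPM in mutants (log2 fold change 0.53, SE 0.159, edgeR adjusted p = 0.390, DESeq2 adjusted p = 0.0826). Myog, which drives differentiation, overlapped between the groups at -0.17. Among 15 regulators of fibre type, Tbx15, a T-box factor of glycolytic fibres, was at 68.9, 84.9 and 63.4 CPM in controls and 118, 100 and 118 CPM in mutants (log2 fold change 0.63, SE 0.132, edgeR adjusted p = 0.269, DESeq2 adjusted p = 0.00408). Eya1, a coactivator in the control of fast genes, and Nfatc1, a calcineurin target, were each lower in every mutant than in every control, with log2 fold changes of -0.45 and -0.48 and edgeR adjusted p-values of 0.419 and 0.418. In the list as a whole 3 of 15 lay apart below and 2 of 15 apart above, where 8.21% and 6.81% of all genes did.

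**Figure D5:**
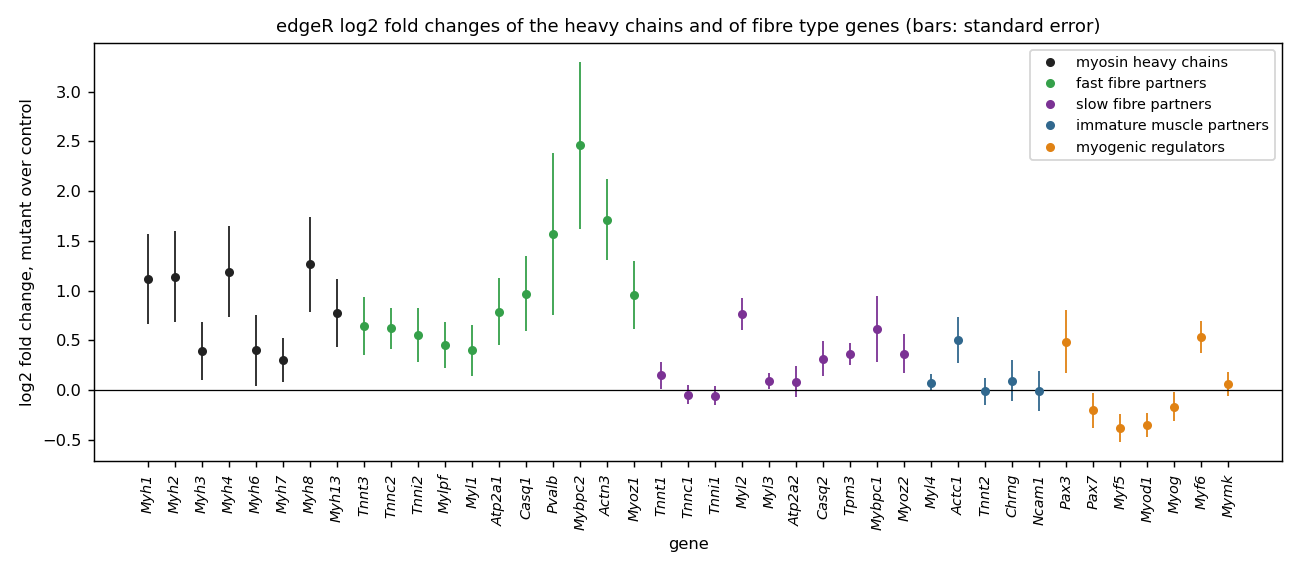
Log2 fold change of mutants over controls from edgeR on the counts, with bars for the standard error, for the 8 heavy chains, 11 fast fibre genes, 10 slow fibre genes, 5 genes of immature muscle and 7 myogenic regulators. All heavy chains and fast genes lie above 0, from 0.30 for Myh7 to 2.46 for Mybpc2, and 4 of the myogenic regulators lie below 0.

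Since Myh8 and Myh4 had the larger differences and Myh3 a smaller one, the 250 bases before the start site of each are shown, from RefSeq on GRCm38.p6. Capitals mark matches on either strand to the TATA box TATAAA, the E-box CANNTG, the MCAT element CATTCC, the MEF2 site or the CArG box. The windows are chr11:67078050-67078299, chr11:67276874-67277123 and chr11:67237562-67237811, all on the plus strand.
Myh3: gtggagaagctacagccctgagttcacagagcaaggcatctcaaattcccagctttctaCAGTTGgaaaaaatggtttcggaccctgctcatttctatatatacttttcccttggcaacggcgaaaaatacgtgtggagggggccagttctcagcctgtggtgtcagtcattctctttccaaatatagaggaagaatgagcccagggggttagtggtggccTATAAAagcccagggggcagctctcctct
Myh8: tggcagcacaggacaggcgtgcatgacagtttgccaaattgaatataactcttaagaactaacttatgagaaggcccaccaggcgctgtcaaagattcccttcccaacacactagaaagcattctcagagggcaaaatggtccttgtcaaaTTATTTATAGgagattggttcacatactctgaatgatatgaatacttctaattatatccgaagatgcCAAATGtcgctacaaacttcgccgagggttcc
Myh4: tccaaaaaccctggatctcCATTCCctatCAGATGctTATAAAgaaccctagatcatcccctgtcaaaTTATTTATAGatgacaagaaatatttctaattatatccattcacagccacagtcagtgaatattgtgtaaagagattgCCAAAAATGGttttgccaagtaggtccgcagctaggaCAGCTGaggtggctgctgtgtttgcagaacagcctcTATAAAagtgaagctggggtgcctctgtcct

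A MEF2 site with the same 10 bases, ttatttatag, was found before Myh8, Myh1 and Myh4 and before none of the other 5 genes, in windows of which 2.92% of 32851 promoters hold a MEF2 site. It began 99 bases before the start site of Myh8, 211 before that of Myh1 and 182 before that of Myh4, and in each it contains TTTATA, the TATA box letters on the other strand. TATAAA began 29 bases before the start site of Myh3, 32 before that of Myh1 and 31 before that of Myh4, and 12.4% of promoters held it somewhere in the window. Before Myh2, which had a log2 fold change of 1.14 on counts, none of these motifs was found. An E-box, the site of the myogenic factors, was present before all of the genes but Myh1 and Myh2, and in 66.2% of all promoters. These are matches of letters, and no binding was measured.

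The genes whose log2 CPM followed the heavy chains most closely over the 6 libraries were taken from 16549 genes with a mean of at least 1 CPM. Nearest to the sum were Gm12671, Atp2a1, Usp2, Mybpc1 and Cacng1, with Pearson correlations of 0.997 to 0.999. Every transcript of Gm12671 is identical to one of Gm10359, so its counts are uncertain. Atp2a1 is the calcium pump of fast fibres and Mybpc1 the slow myosin binding protein C. Nearest to Myh8 were Gm5559, Sntb1, Pygm, Gys1 and Tnnc2, at 0.997 to 0.999, of which Pygm and Gys1 break down and build muscle glycogen. Nearest to Myh3 were Pbxip1, Sgca, Inpp5k, Sel1l3 and Alpk3, and nearest to Myh7 were Sptb, Ubr3, Map4, Gm45246 and Mef2d. With 6 libraries that include 2 close pairs, these are descriptions of order and level.

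The transcripts that lie in and between the heavy chain genes had few counts. No strand was used, so in exon bases that antisense genes share with Myh1 or Myh7, strand could not tell the reads apart. The antisense genes Myhas, which overlaps Myh1, and Mhrt, which overlaps Myh7, had at most 7 and 6 counts in any library. The microRNA genes Mir208a and Mir208b, hosted by Myh6 and Myh7, had at most 1 and 2 counts, and the libraries were not made for small RNAs. The noncoding gene 2310065F04Rik, between Myh3 and Myh2, had 23, 30 and 17 counts in controls and 39, 21 and 53 in mutants, and the groups overlapped.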

How the data were processed

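RNA-Seq of rib cages from 6 embryos at 16.5 dpc was analysed, 3 control and 3 mutant, grouped by the genotype label. The authors aligned reads to GRCm38 with HISAT2 2.1.0 and deposited raw counts per gene from featureCounts 1.6.0 on exons of GENCODE vM25, with each end counted on its own and no strand used, although the libraries were stranded. The authors also deposited expected counts and TPM from STAR 2.7.6 and RSEM 1.2.31. A further pair of tables held the authors' DESeq2 1.26.0 comparisons (fold changes and p-values), and their 12 columns of per-sample values were not used.

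Symbols were found for 55227 of 55487 genes. Genes with at least 10 counts summed (26596) entered edgeR 4.0.16 (TMM scaling, glmQLFit, glmQLFTest) in R 4.3.3, with Benjamini-Hochberg adjustment and limits of 0.1 and a log2 fold change of 1. CPM uses TMM-scaled library sizes, and 95% intervals come from the fit. P-values measure the spread between libraries, each taken as 1 embryo, and those of edgeR and DESeq2 also draw on the spread of other genes. A value of 3 counts corresponds to 0.0628 to 0.0793 CPM before TMM. Shares, ratios and sums used exact permutation tests, 2-sided (scipy 1.17.1). DESeq2 1.42.0, other scaling, filters and limits, rounded RSEM counts and leaving out libraries were tried. Added after the values were seen were leaving out E434 and E433, summing close pairs, and DESeq2 on RSEM counts. On simulated data, over 26596 genes of this comparison with 200 changed, edgeR found 175 plus 11 unchanged genes, and DESeq2 177 plus 37. The changed genes were well counted and had log2 folds of 1.5 or 3 in either direction. All genes had the same dispersion of 0.0960, and no library stood apart or paired closely. The power to find changes in the real libraries was therefore not measured.

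Named genes are the 8 members, the listed partner, regulator and marker genes, the 5 nearest genes by correlation of log2 CPM (prior count 2) and genes that overlap or lie between the members. The members and lists were chosen with earlier results of these data known. Sequences are from GENCODE and RefSeq on GRCm38, and coordinates are 1-based.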

Additional observations from a re-analysis of the deposited data

How the results depend on the processing

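The count of heavy chain genes past both limits was 0 of 8 in edgeR with other scaling, with other filters, on RSEM counts and at other limits, and in DESeq2 on the counts. It was 1 in DESeq2 on RSEM counts, 0 with the close pairs summed, 6 without E434 and E433, and between 0 and 2 with a single library left out, with 2 only without E433. Over all genes, 17 were past both limits. This became 477 in DESeq2, 37 with no low-count filter, 10 on RSEM counts, 359 in DESeq2 on RSEM counts, 0 at an adjusted p limit of 0.05 and 0 with the close pairs summed, 2066 without E434 and E433, and 0 to 1087 with a single library left out (1087 without E433, and 0 without E420, E435, E423 or E440). The causes were not tested. At an unadjusted p-value under 0.05 edgeR had 2820 genes at every limit, 769 with the close pairs summed, and 1661, 1699, 1450 and 1459 without E420, E435, E423 and E440. All 112 fold changes of the 8 genes under these alternatives were positive. Of these, 9 newly passed the limits, and the other 103 stayed on their side. For Myh8 the log2 fold change without 1 library ran from 1.03 to 1.83, for Myh3 from 0.22 to 0.77, for Myh6 from 0.18 to 0.92, for Myh7 from 0.15 to 0.60 and for Myh13 from 0.59 to 1.18, each highest without E434 and lowest without E435. The differences in share, in summed level and in the ratio of Myh8 to Myh3 kept their direction under every alternative run, and none of their tests can pass 0.05 with these numbers of embryos. No paired analysis was possible because the embryo numbers name single embryos and the labels give no litter.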
